A study of Sus scrofa with 6 samples.

Results

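BDNF and the neurotrophin system were examined in brain messenger RNA of 3 Rongchang pigs, which belong to a domesticated breed from China, and 3 wild boars. Each animal gave 1 library, and all were 210 days old. The labels give no treatment, sex or brain region and no further origin of the animals, so a p-value here speaks only of the spread among the 6 libraries. Of 6 genes named for this system (BDNF, NTF3, NTRK2, NTRK3, NGFR and SORT1), 5 had a row among the 18225 genes of the deposited table, and 4 of them passed the filter for testing, which asked for at least 1 FPKM in at least 3 libraries. FPKM counts the fragments of a gene per kilobase of its transcript, relative to all fragments mapped in the library. NTF3 was not analysed here, and NGFR lay under the filter. BDNF was chosen because its values were higher in wild boar, so its breed difference is given as a description without a test. The other genes were chosen by name as its receptors and relatives.

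Neurotrophins are secreted growth factors that keep neurons alive and adjust synapses. Each is made as a precursor that proteases trim to the mature factor. BDNF binds the receptor tyrosine kinase TrkB, encoded by NTRK2, and neurotrophin-3 binds TrkC, encoded by NTRK3. The receptor p75, encoded by NGFR, binds all neurotrophins, and together with sortilin, encoded by SORT1, it binds their precursors. Sortilin also sorts the BDNF precursor inside the cell. Excitatory neurons of the cortex and hippocampus are a main source of BDNF, and astrocytes make a truncated form of TrkB that lacks the kinase. Values here are per gene and do not separate that form from the full-length receptor.

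The libraries carried messenger RNA of neurons and glia in both breeds. The synaptic gene SNAP25 lay between 786 and 1156 FPKM and the astrocyte gene GFAP between 441 and 525. The transthyretin gene TTR, abundant in choroid plexus, stood at 34.2 FPKM in wild boar 3 and between 0.12 and 3.01 in the other 5 libraries. The other choroid plexus markers with a row, KCNJ13 and CLIC6, did not follow it. In wild boar 3 they stood at 0.597 and 0.0453 FPKM, inside the range of the other libraries. Sequencing depth is unknown for FPKM values. Mitochondrially encoded genes held 30.0% to 46.8% of the summed FPKM. The 13152 genes tested had a median log2 difference of −0.13 between wild boar and Rongchang, and 77.9% of them lay below 0. Throughout, a difference is the wild boar mean of log2(FPKM + 1) less the Rongchang mean, and this scale understates the change of genes with low values.

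BDNF stood at 3.82, 4.18 and 3.83 FPKM in Rongchang 1, 2 and 3 and at 5.37, 6.83 and 6.13 FPKM in wild boar 1, 2 and 3. Every wild boar lay above every Rongchang pig, and the lowest wild boar was 1.19 FPKM above the highest Rongchang. The means were 3.94 ± 0.208 FPKM (SD, n = 3) and 6.11 ± 0.728 FPKM (SD, n = 3), a ratio of 1.55. The log2 difference was 0.52, or 0.65 relative to the median gene. BDNF held place 97 from the top among the 13152 differences, and 1.12% of the genes tested lay entirely higher in wild boar as BDNF did. Nothing is read from that share, since BDNF was chosen on this difference. Of 10 markers of excitatory and cortical neurons, 8 had a row. Their summed level ran from 531 to 660 FPKM in Rongchang and from 474 to 676 FPKM in wild boar and so overlapped between the breeds. Most of that sum came from the markers SLC17A7 and CAMK2A, and each of the 8 also overlapped on its own. None of these 8 stood at 0 in any library, and their part in the BDNF difference was not tested.

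The TrkB gene NTRK2 was the most abundant of the 5. Rongchang 1, 2 and 3 had 111, 170 and 59.5 FPKM, and wild boar 1, 2 and 3 had 91.3, 141 and 86.5 FPKM. The breeds overlapped widely, and the highest and the lowest of the 6 values both belonged to Rongchang. The log2 difference was −0.0043 with a standard error of 0.38 and a 95% interval from −0.87 to 0.86 (limma, adjusted p = 0.998). A difference as large as that of BDNF lies inside this interval. Its sign turned positive when each library was scaled to the same median (0.17). In a tissue of many cell types, fewer cells of a type and less RNA per cell cannot be told apart, for this gene and for the others below.

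NTRK3, the TrkC gene, was far less abundant, at 9.09, 11.8 and 7.44 FPKM in Rongchang and 8.29, 10.5 and 7.38 FPKM in wild boar. Its values overlapped between the breeds (log2 difference −0.09, 95% interval −0.56 to 0.37, limma adjusted p = 0.927). SORT1 had 75.8, 112 and 80.2 FPKM in Rongchang, beside 76.0, 99.0 and 65.8 FPKM in wild boar. It too overlapped, with a log2 difference of −0.15, a 95% interval from −0.67 to 0.37 and an adjusted p of 0.896 in limma. Both turned positive after median scaling, at 0.060 and 0.021. None of the 3 receptor genes tested passed, against 0.0076% of all genes tested that did. At an unadjusted p under 0.05, 0 of the 3 stood apart, against 6% of all genes tested.

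The p75 gene NGFR was close to the floor of the table, at 0.538, 0.287 and 0.744 FPKM in Rongchang and 0.414, 0.629 and 0.191 FPKM in wild boar. Its values overlapped and were not tested. Cholinergic neurons of the basal forebrain are known for high p75, and of 6 markers of cholinergic neurons 4 had a row. CHAT, which makes acetylcholine, was listed at 0 in Rongchang 2 and wild boar 3 and reached no more than 0.109 FPKM elsewhere. The choline transporter SLC5A7 lay between 0.123 and 0.314 FPKM and the vesicle transporter SLC18A3 between 0.0708 and 0.397. The summed level of the 4 markers was 18.5 to 22.3 FPKM in Rongchang and 13.1 to 13.8 in wild boar, most of it from ACHE, an acetylcholine-degrading enzyme that other cells make too. The part of these cells in the NGFR values was not tested.

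**Figure D1:**
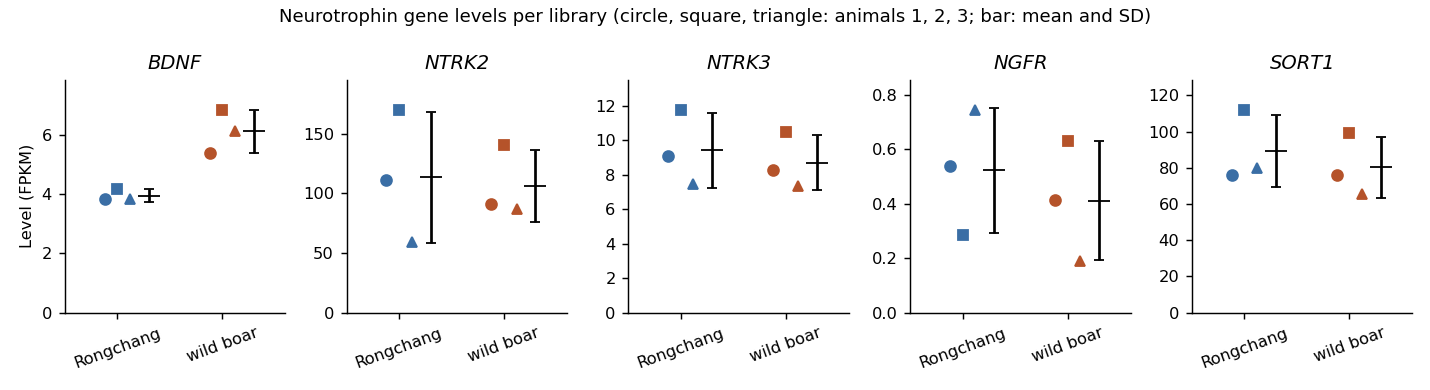
Level in FPKM (vertical axes, each from 0) of the 5 genes in each library, with circles, squares and triangles for animals 1, 2 and 3 of each breed and the bar for mean and SD. BDNF is the 1 gene whose wild boar values (5.37 to 6.83) all lie above the Rongchang values (3.82 to 4.18).

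Because FPKM is scaled to transcript length, levels can be set side by side between genes. NTRK2 averaged 110 FPKM over the 6 libraries and SORT1 84.8 FPKM, and these neighbours overlapped within each breed. NTRK3 averaged 9.07 FPKM and BDNF 5.03 FPKM, and in each breed every NTRK3 value lay above every BDNF value. NGFR came last at 0.467 FPKM, below BDNF in every library. Among all genes listed, the mean of NTRK2 lay above 97.4% and that of SORT1 above 96.6%, NTRK3 above 69.1%, BDNF above 55.8% and NGFR above 20.4%. The receptor was listed at a far higher level than its ligand in each library. BDNF per 100 of NTRK2 was 3.44, 2.47 and 6.43 in Rongchang and 5.88, 4.85 and 7.09 in wild boar. Rongchang 3, with the lowest NTRK2, lay inside the wild boar range, so this ratio overlapped between the breeds although BDNF itself did not.

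NTRK3 per 100 of NTRK2 was 9.21 ± 2.92 (SD, n = 3) in Rongchang and 8.35 ± 0.838 (SD, n = 3) in wild boar. The ratio of SORT1 to NTRK2 was 0.897 ± 0.390 and 0.765 ± 0.0647. In both ratios Rongchang 3 was the highest library, at 12.5 per 100 and at 1.35. NGFR per 100 of NTRK2 was likewise highest there, at 1.25, against 0.169 to 0.486 in the other 5 libraries. These ratios do not depend on how a library was scaled.

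The 5 genes differed in how much they varied among animals of a breed. BDNF had a coefficient of variation of 5.28% in Rongchang and 11.9% in wild boar. For NTRK2 it was 48.7% and 28.3%, for NTRK3 23.1% and 18.2%, for SORT1 22.0% and 21.2%, and for NGFR 43.7% and 53.2%. Each coefficient rests on 3 animals. BDNF was chosen for its breed difference, and that choice can favour a small spread within breeds, so nothing is read from its lower coefficients. The library numbered 2 was the highest of its breed for NTRK2, NTRK3 and SORT1 in both breeds. NTRK2 stood there at 1.50 times its breed mean in Rongchang and 1.33 times in wild boar, NTRK3 at 1.25 and 1.20 times, and SORT1 at 1.25 and 1.23 times. BDNF was also highest in number 2, by less, at 1.06 and 1.12 times. NGFR went apart, as it was lowest in Rongchang 2 (0.549 times) and highest in wild boar 2 (1.53 times).

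Cell type markers were compared in the same libraries. Astrocyte markers, of which 6 of 8 had a row and none was at 0, summed to 988 to 1243 FPKM in Rongchang and 974 to 1231 in wild boar, with Rongchang 3 and wild boar 2 the lowest of their breeds. Microglia markers, of which 4 of 8 had a row, summed to 48.2 and 37.6 FPKM in the 2 libraries numbered 2 and to between 67.6 and 84.4 in the other 4. The excitatory and cortical neuron markers were highest in the number 2 of each breed, at 660 and 676 FPKM. The sum of inhibitory neuron markers, of which 7 of 8 had a row, was lowest there, at 558 and 605 FPKM. Most of that sum was CCK, at 340 and 351 FPKM, which with PVALB was lowest in the number 2 of each breed. GAD1, GAD2 and LHX6 went the other way and were highest there. SLC32A1 and VIP were lowest in Rongchang 2 and highest in wild boar 2. The part of these cell types in the receptor values was not tested.

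**Figure D2:**
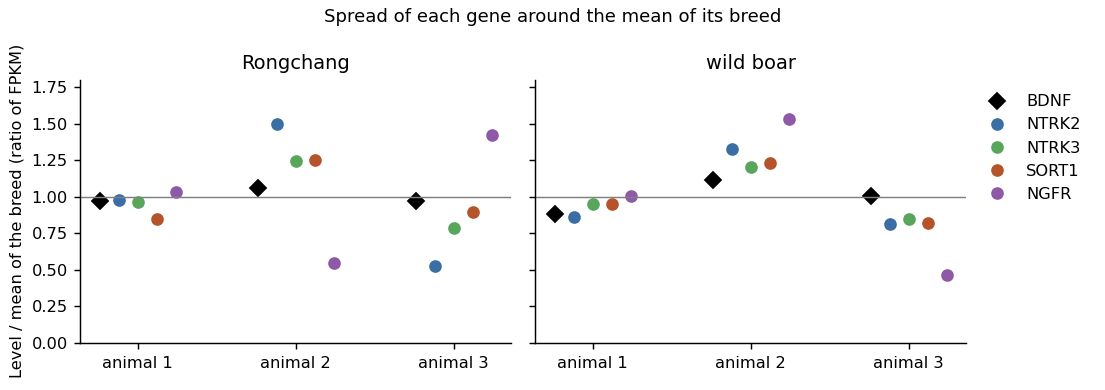
Level of each gene divided by the mean of its breed (vertical axis, a ratio of FPKM) for animals 1, 2 and 3 of each breed. NTRK2, NTRK3 and SORT1 lie above 1 in animal 2 of both breeds, while BDNF stays between 0.879 and 1.12. BDNF was chosen for its breed difference, and that choice can favour a small spread within breeds.

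Over the 6 libraries NTRK2 and NTRK3 followed each other most closely of the 10 pairs among the 5 genes. Pearson's r of log2(FPKM + 1) was 0.942 and Spearman's rho 0.943. Without Rongchang 2 and Rongchang 3, the 2 libraries farthest from the median of NTRK2, r was 0.975, and without both libraries numbered 2 it was 0.791. SORT1 followed NTRK3 with r = 0.904 and rho = 0.771, but r was 0.305 without both libraries numbered 2, so that relation rests on them. For BDNF, r was 0.194 with its receptor NTRK2, 0.00127 with NTRK3, −0.0701 with SORT1 and −0.263 with NGFR. Without both libraries numbered 2 these values were 0.169, −0.402, −0.807 and −0.917. The values of BDNF carry the breed difference it was chosen for, and same-numbered animals deviated together, so the 6 libraries are not independent and all these correlations are descriptions without a test.

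The genes whose levels were most like those of BDNF over the 6 libraries were taken by Pearson's r among 8537 other tested genes with a symbol. They were LARP7 (r = 0.989), which binds the 7SK RNA, the translation initiation factor gene EIF3J (0.969), FAM187A (0.957), the secreted Wnt ligand gene WNT7B (0.954) and RCC2 (0.953), which acts in chromosome segregation. Spearman's rho of the 5 lay between 0.829 and 0.943, and r lay between 0.785 and 0.975 without wild boar 2 and wild boar 3. LARP7 stood at 5.12, 5.07 and 4.73 FPKM in Rongchang and 7.76, 9.73 and 8.70 in wild boar. WNT7B stood at 8.37, 8.80 and 7.64 FPKM and at 9.45, 10.6 and 9.95. All 5 were higher in every wild boar than in every Rongchang pig, as were 1.12% of all genes tested. Likeness to BDNF, itself chosen for that difference, fixes this pattern, so neither it nor the r values support anything. FAM187A, at 0.460 to 0.848 FPKM in Rongchang and 1.06 to 2.12 in wild boar, passed the filter through the wild boars.

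For NTRK2 the 5 nearest were SON (r = 0.997), which acts in splicing, the transcriptional co-activator gene CREBBP (0.988), the transcription factor gene RFX7 (0.987), the microtubule protein gene MAP1A (0.986) and SCYL3 (0.980). Spearman's rho was 1 for each, and r lay between 0.928 and 0.999 without Rongchang 2 and Rongchang 3. MAP1A stood at 81.9, 98.6 and 52.9 FPKM in Rongchang and 72.5, 97.4 and 69.9 in wild boar. SON moved over a narrower range, from 20.4 FPKM in Rongchang 3 to 28.5 in Rongchang 2. In all 5, as in NTRK2, both ends of the range belonged to Rongchang, which the choice by likeness brings about.

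**Figure D3:**
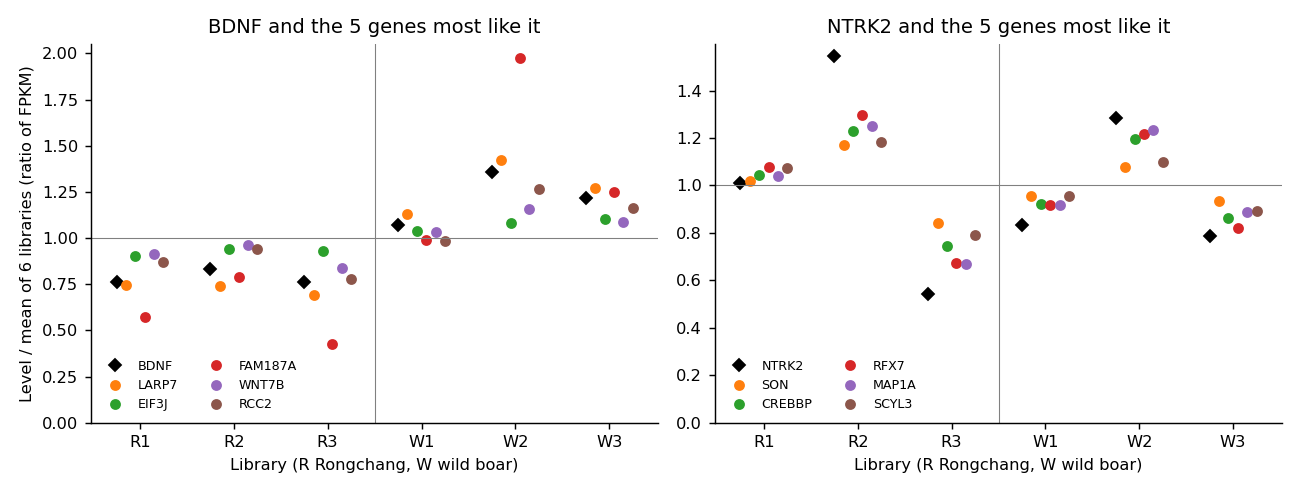
Level divided by the mean of the 6 libraries (vertical axis, a ratio of FPKM) for BDNF and NTRK2 (diamonds) and the 5 genes most like each (circles), with R1 to R3 for Rongchang and W1 to W3 for wild boar. The genes were chosen for this likeness, so the BDNF set is higher in all 3 wild boars and the NTRK2 set highest in Rongchang 2 and lowest in Rongchang 3 by that choice.

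The wider pathway was read from 6 lists of 140 genes in all, of which 103 had a row and 94 were tested. None passed over all genes in limma (adjusted p from 0.724 to 0.999). At an unadjusted p under 0.05, 2 were higher (2.13%, against 0.578% of all genes tested) and 4 lower (4.26%, against 5.42%) in wild boar. With animal number as a block these counts were 2 and 10 of 94, against 185 higher and 2104 lower of 13152 genes tested. After each library was scaled to the same median, without the block, 2 were higher and 1 lower, against 1.89% and 1.87% of all genes tested. With the block and this scaling together, 10 of 94 were higher and 3 lower, against 719 and 660 of 13152 genes tested. Values did not overlap between the breeds for 2 genes higher (2.13%, against 1.12%) and 11 lower (11.7%, against 11.4%). The median difference of the 94 was −0.07, or 0.06 relative to the median gene, and 71.3% lay below 0, against 77.9% of all genes tested. After median scaling 31.9% lay below 0, against 46.4%.

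Among other neurotrophins and receptors, 6 of 9 genes had a row and 4 were tested, with a median difference of 0.04, or 0.18 relative to the median gene. NTF4, which encodes another ligand of TrkB, lay between 0.516 and 0.791 FPKM, under the filter. The most abundant was LINGO1, a partner of p75 in myelin signalling, at 91.5 to 152 FPKM. Of the sortilin family, SORCS1 lay at 2.83, 4.86 and 4.33 FPKM in Rongchang and 2.77, 6.11 and 6.74 in wild boar (log2 difference 0.27). SORCS3 and SORL1 had differences of 0.12 and −0.20. All 4 overlapped between the breeds.

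Of 20 genes for processing, sorting and release of the precursors, 12 were tested, 9 of them with a difference higher than the median gene (median 0.11 relative to it). PCSK6, a convertase that cuts precursors at paired basic residues, stood at 7.25, 7.92 and 7.93 FPKM in Rongchang and 12.1, 9.15 and 10.2 in wild boar. The breeds did not overlap (log2 difference 0.39 ± 0.15 SE, limma adjusted p = 0.789). SERPINI1, the inhibitor neuroserpin of tissue plasminogen activator, lay the other way without overlap. It stood at 27.2, 34.1 and 31.8 FPKM and at 20.2, 24.4 and 26.0 (−0.39 ± 0.17 SE, limma adjusted p = 0.789). PCSK6 and SERPINI1 were each the 1 gene of the 12 apart in its direction (8.33%). Of all genes tested, 1.12% lay entirely higher in wild boar and 11.4% entirely lower. The convertase PCSK2 had a difference of −0.33 with overlap, and FURIN, the convertase of the secretory pathway, lay between 10.8 and 12.5 FPKM in all libraries. Carboxypeptidase E, encoded by CPE, was the most abundant at 562 to 773 FPKM.

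Among 33 tested genes of Trk adaptors and signalling, 26 (78.8%, against 77.9% of all genes tested) had a difference under 0, while 22 exceeded the median gene, and the list median was 0.04 relative to it. None had an unadjusted p under 0.05, and 4 (12.1%, against 11.4% of all genes tested) lay lower in every wild boar than in every Rongchang pig. They include the adaptor SHC1, at 4.29, 3.97 and 4.44 FPKM in Rongchang and 3.45, 3.30 and 3.18 in wild boar (−0.28). The adaptor FRS2 overlapped, with a difference of −0.27. The most abundant was CAMK2A, a calcium-dependent kinase of excitatory synapses, at 172 to 262 FPKM.

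In the p75 adaptor list 17 were tested, and the list median, relative to the median gene, was −0.01. MAPK9, the kinase JNK2, stood at 26.0, 30.3 and 25.2 FPKM in Rongchang and 17.7, 25.0 and 17.4 in wild boar, without overlap (log2 difference −0.44 ± 0.18 SE, limma adjusted p = 0.789). MAPK8, the kinase JNK1, at 6.06 to 6.46 and 4.62 to 5.23 FPKM, and the gamma-secretase gene PSEN2, at 15.5 to 20.7 and 12.9 to 14.7, were also apart, with differences of −0.27 and −0.29. These 3 of the 17 (17.65%, against 11.4% of all genes tested) lay lower in every wild boar than in every Rongchang pig. The adaptor gene BEX1 was the most abundant, at 290 to 443 FPKM.

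Of 22 regulators of BDNF transcription 15 were tested, and 12 exceeded the median gene (median 0.11 relative to it). The most abundant, MEF2C, a transcription factor controlled by neuronal activity, stood at 77.9, 114 and 81.3 FPKM in Rongchang and 52.0, 71.5 and 54.2 in wild boar. Each wild boar lay below each Rongchang pig, with a log2 difference of −0.61 ± 0.22 SE (limma adjusted p = 0.789), opposite in sign to BDNF. After median scaling it was −0.44. Of the 15, 73.3% lay below 0, against 77.9% of all genes tested, and 13.3% lay entirely lower in wild boar, against 11.4%. The calcium-response factor CARF was also apart, at 3.40 to 3.72 and 2.34 to 2.87 FPKM (−0.30), and NFATC4 overlapped (−0.12). NPAS4, an activity-induced factor that acts on BDNF, lay under the filter at 1.09, 1.31 and 0.829 FPKM in Rongchang and 0.374, 0.797 and 0.449 in wild boar. It falls outside the naming rule and was picked after its values were seen.

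Of 20 genes that TrkB signalling is known to induce, all 13 with a row were tested. Of these, 7 lay above 0 and 6 below (46.15%, against 77.9% of all genes tested that lay below 0). The 2 ends of the list were opposite. HOMER1, a postsynaptic scaffold that also has a short activity-induced form, stood at 22.8, 27.0 and 18.6 FPKM in Rongchang and 29.4, 46.5 and 33.0 in wild boar (log2 difference 0.64 ± 0.22 SE, limma adjusted p = 0.789). JUNB, a subunit of the AP-1 factor, stood at 14.9, 14.5 and 17.6 FPKM and at 9.75, 10.5 and 9.38 (−0.61 ± 0.14 SE, limma adjusted p = 0.724). Neither gene overlapped between the breeds, and each was the 1 such gene of the 13 in its direction (7.69%). Of all genes tested, 1.12% lay entirely higher in wild boar and 11.4% entirely lower. FOS, another AP-1 subunit, had a difference of −0.33 with overlap. EGR1, an early-response transcription factor, had 25.5, 26.5 and 19.9 FPKM in Rongchang, and in wild boar both the highest and the lowest value of the 6 libraries, 33.0 in wild boar 2 and 13.5 in wild boar 3. The peptide gene NPY was the most abundant, at 72.4 to 113 FPKM with overlap.

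**Figure D4:**
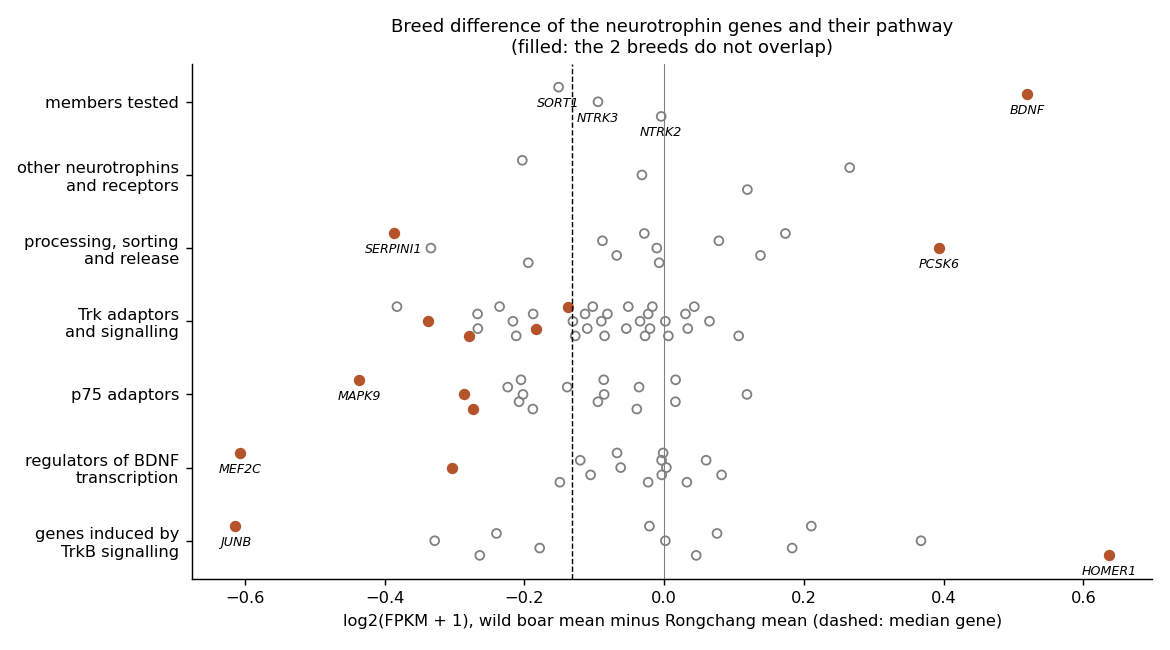
Log2 difference in log2(FPKM + 1), wild boar minus Rongchang (horizontal axis), of the 4 tested genes and the 94 tested pathway genes in 6 lists, 1 point per gene, filled where the breeds do not overlap. The dashed line marks the median gene at −0.13, and BDNF, HOMER1 and PCSK6 are the 3 filled points right of 0.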

How the data were processed

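Brain messenger RNA of 6 animals was measured with a strand-marking poly(A) protocol and paired-end reads on an Illumina HiSeq instrument, per the labels' protocols. TopHat2 2.0.11, Cufflinks 2.2.1 and Cuffdiff are named, without role or order, per the submitters' processing notes. No source used here gives the genome build, annotation or strand setting, so reads from a gene and an antisense partner may not be separated. The authors deposited 1 value per gene and library, judged to be FPKM from the named tools and the values. Ratios of values under 0.15 FPKM between libraries showed no step shared by all pairs, so depth stayed unknown and no count test was run. The largest share in 1 window of 0.04 log2 units was 23.7%, for Rongchang 1 with wild boar 1. It was 17.8% for Rongchang 3 with wild boar 3 and lowest, at 3.39%, for wild boar 2 with wild boar 3.

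Symbols came from a table of Ensembl identifiers (10937 of 18225 matched, 60.0%). Groups follow the titles. limma 3.58.1 in R 4.3.3, two-sided with a mean-variance trend, was fitted to log2(FPKM + 1) over all 13152 genes with at least 1 FPKM in 3 libraries, with Benjamini-Hochberg adjustment at 0.05, and the procedure was tested on simulated data. No block was used in the main comparison. Same-numbered animals deviated together (correlations 0.283, 0.587 and 0.368, all above 0.1), from the data alone, since the labels do not say what a number marks. Pairs of different numbers ran from −0.454 to 0.125. The highest of them, Rongchang 1 with wild boar 3, also lay above 0.1.

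The genes and lists were chosen with earlier results of these data known. Named were the 5 genes, in each pathway list the 3 tested genes with the smallest p and the most abundant one, the 5 genes most like BDNF and like NTRK2 and the most abundant marker of cell type lists. Others were named for their role, after their values were seen (EGR1, FURIN, NTF4, RET, NPAS4, CHAT, SLC5A7 and SLC18A3). Some genes that the rule names are not reported here.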

Additional observations from a re-analysis of the deposited data

How the results depend on the processing

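Over 18 alternatives BDNF kept a positive log2 difference, from 0.45 without wild boar 2 to 0.66 with each library scaled to the same median, with or without the replicate block (0.66 with quantile normalization). The replicate block alone left its difference at 0.52 and changed no call of a receptor gene or a pathway gene. None of the receptor and pathway genes tested passed the adjusted threshold under any of the 18 (0 of the pathway genes in limma in each). The number of genes called over the whole table was 1, and was 3 or 2 with a pseudocount of 0.1 or 0.01 FPKM, 0 with a minimum mean of 5 FPKM, 3 without both libraries numbered 2, and 1 to 4 when 1 library was left out, with 4 without Rongchang 1, Rongchang 2 or wild boar 1. The receptor genes, none of which passed, had differences whose sign changed. NTRK2 stood at 0.17 after median scaling, with or without the block, at 0.14 with quantile normalization, at 0.023 after rescaling without mitochondrially encoded genes and at 0.13 without both libraries numbered 2, and ran from −0.40 to 0.35 with 1 library left out. NTRK3 stood at 0.060 after median scaling, with or without the block, and at 0.050 with quantile normalization, and ran from −0.24 to 0.061 with 1 library left out. SORT1 stood at 0.021 after median scaling, with or without the block, and ran from −0.31 to 0.021 with 1 library left out. NGFR stood at −0.11, at −0.39 with a pseudocount of 0.01 FPKM and at −0.34 without both libraries numbered 2, and ran from −0.23 to 0.0057 with 1 library left out. The cause of these shifts was not tested. Pathway genes with an unadjusted p under 0.05 numbered 1 to 10 higher and 1 to 10 lower over the alternatives, where those of all genes tested numbered 29 to 719 higher and 242 to 2104 lower. Depth being unknown, no limit of detection can be given for NGFR.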

Other observations

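Other neurotrophic factors and receptors were read from a list of 29 genes of the GDNF, CNTF, pleiotrophin, insulin-like growth factor and related families, of which 18 had a row and 12 were tested. Of the 12, 10 lay below 0 (83.3%, against 77.9% of all genes tested) and 8 below the median gene, with a median log2 difference of −0.25, or −0.12 relative to it. None passed in limma (0 genes, adjusted p from 0.789 to 0.983; 0 at an unadjusted p under 0.05). CNTFR, the receptor subunit that binds ciliary neurotrophic factor, stood at 24.1, 22.2 and 19.9 FPKM in Rongchang and 17.7, 16.2 and 17.9 in wild boar, and was the 1 member of 12 whose breeds did not overlap (8.33%, against 11.4% of all genes tested that lay entirely lower in wild boar), with a difference of −0.33. GFRA4 lay at 1.45, 1.63 and 1.50 FPKM and at 1.59, 0.787 and 0.51 (−0.40). The vessel growth factor VEGFA lay at 12.4, 14.5 and 14.2 FPKM and at 10.3, 13.6 and 9.28 (−0.30). Pleiotrophin, encoded by PTN, was the most abundant, at 75.1 to 105 FPKM. RET, the kinase that GDNF receptors signal through, stayed between 0.407 and 0.705 FPKM.

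The genes next to BDNF in the RefSeq order of the pig genome were looked up after the values of BDNF were known. LIN7C, a scaffold gene, stood at 23.0, 22.2 and 18.7 FPKM in Rongchang and 19.9, 15.1 and 23.8 in wild boar (log2 difference −0.13). LGR4, a receptor for R-spondins, stood at 10.7, 11.8 and 9.78 FPKM and at 10.1, 9.28 and 9.43 (−0.15). METTL15 stood at 1.67, 1.93 and 2.23 FPKM and at 1.58, 1.64 and 2.01 (−0.10). Each overlapped between the breeds, and KIF18A lay under the filter, at 0 to 0.202 FPKM.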
